A study of Apis mellifera with 138 samples.

Results

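The genes described here encode heat shock proteins, their helper proteins and chaperonins of the honey bee (Apis mellifera): Hsp70Ab-like (gene11493), Hsc70-4 (gene328), Hsc70Cb (gene1827), dnaJ homolog 1 (gene4180), dnaJ A1 (gene3681), Hsp90 (gene6008), Hsp83 (gene1186), Stip1 (gene3794), Hsp60A (gene11933) and TCP1 delta (gene10730). They were picked by gene identifier and are 10 of the 12332 bee genes in the count tables. Each of the 10 belongs to the study's own list of genes that were higher in the brain after antag-305 feeding in these same libraries. The brain treatment contrast therefore chose them, and its values are given below as a description with no test. All 10 passed the filter on low counts in both tissues, in which 9118 brain genes and 8844 fat body genes were tested. By their known roles 9 of the 10 act in the cytosol. Hsp60A is by background the chaperonin of the mitochondrial matrix, so the name cytosolic is not apt for it.

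Workers came from 3 colonies, R2, R3 and R42, each headed by a queen inseminated with the semen of a single drone, and each colony was also a separate trial. At 3 days of age each bee was fed 1000 pmol of an oligonucleotide in 30% sucrose, either antag-305, which is antisense to the microRNA ame-miR-305-5p, or the control antag-missense. Bees were then caged singly and collected 48 h later, at 5 days of age. RNA was sequenced from the brain, with the hypopharyngeal glands removed, and from the abdominal fat body still attached to the cuticle, of the same individuals. There was no unfed group, so the feeding and caging are shared by all libraries.

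Chaperones bind unfolded or partly folded proteins. Hsp70 proteins work in cycles that J proteins (dnaJ) start and exchange factors end, Hsp90 proteins mature signaling proteins that are handed over from Hsp70 by Stip1, and chaperonins enclose a folding chain in a barrel. Many of these genes are transcribed at a basal rate in every cell and more strongly under heat or other protein stress, through heat shock factor. In insect brains, as in other tissues, the constitutive members are abundant transcripts.

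Of 138 libraries, 132 had a viral share of counts of at most 0.5% and were kept. The highest kept share was 0.373% and the lowest left out was 0.873%. The left-out libraries, 2 brains and 4 fat bodies, were all antag-missense. This left 35 antag-305 and 32 antag-missense brains and 35 antag-305 and 30 antag-missense fat bodies, with 9 to 12 bees in each colony and treatment. Each library is a single bee, so p-values measure the spread between bees. Bee gene totals ran from 5346264 to 49150105 counts per library. The summed level of 5 neuron markers was at least 3211 CPM (counts relative to the library total) in every brain and at most 672 CPM in any fat body. For marker sums this total was left unscaled, and for the levels of the described genes it was scaled. The sum of 5 fat body markers ran from 366 to 9817 CPM in fat bodies and reached 96.4 CPM in brains. Muscle came along with the cuticle: 5 troponin C markers summed to between 1095 and 3121 CPM in fat body libraries. Hypopharyngeal gland markers summed to between 0.531 and 2013 CPM in brains. None of the 20 markers was at 0 in all libraries of a group. In bulk tissue, fewer cells of a type and less RNA per cell cannot be told apart.

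In control bees, the most abundant of these chaperones per unit of gene length were Hsp90 and Hsc70-4, in both tissues. On the scale of CPM per kilobase of gene span, introns included, antag-missense brains (n = 32) had Hsp90 at 773 ± 203 (mean ± SD) and Hsc70-4 at 592 ± 190. Next came dnaJ A1 at 147 ± 12.8, followed by Hsp83 at 90.8 ± 47.3, Hsp70Ab-like at 85.1 ± 48.6 and dnaJ homolog 1 at 81.9 ± 31.5 CPM per kilobase. Hsc70Cb (67.7 ± 8.76), Stip1 (67.3 ± 10.8), Hsp60A (52.7 ± 10.6) and TCP1 delta (37.2 ± 2.28) closed the order. Between neighbours in this order, the gap exceeded the sum of their SDs only from Hsc70-4 to dnaJ A1 and from Hsp60A to TCP1 delta.

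In antag-missense fat bodies (n = 30) the order began with Hsc70-4 at 561 ± 354 and Hsp90 at 507 ± 161 CPM per kilobase. Hsp83 (198 ± 64.4), dnaJ A1 (171 ± 30.2), Hsp60A (143 ± 25.95), Stip1 (108 ± 23.7) and dnaJ homolog 1 (101 ± 14.7) followed. The lowest were TCP1 delta at 73.9 ± 11.2, Hsc70Cb at 38.1 ± 7.80 and Hsp70Ab-like at 34.0 ± 19.96 CPM per kilobase. Neighbours were further apart than the sum of their SDs from Hsp90 to Hsp83, from dnaJ homolog 1 to TCP1 delta and from TCP1 delta to Hsc70Cb. The 10 genes together held a median of 0.725% of all bee counts in antag-missense brains and 0.736% in antag-missense fat bodies.

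The members of the Hsp70 system were described first in the brain. Hsp70Ab-like (symbol LOC410620, HAv3.1 chromosome 15, 5231544 to 5235275, plus strand) is named after a Drosophila gene that encodes a strongly heat-inducible Hsp70. Its lowest, median and highest levels were 121, 264 and 739 CPM in antag-missense brains and 130, 632 and 2178 CPM in antag-305 brains. The groups overlapped, with 13 of 35 antag-305 brains above the highest antag-missense brain. The fitted difference, antag-305 minus antag-missense with colony as a covariate, was 1.26 ± 0.19 (SE) on the log2 scale, a fold of 2.39.

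Hsc70-4 (chromosome 1, 5356800 to 5361132, minus strand) encodes the constitutive cytosolic Hsp70, known from Drosophila as a clathrin-uncoating and general folding protein. Its lowest, median and highest levels were 1615, 2394 and 5294 CPM in antag-missense brains and 1816, 3819 and 7326 CPM in antag-305 brains. Only 8 of 35 antag-305 brains exceeded the highest antag-missense brain, while 27 exceeded the control median. The log2 difference was 0.63 ± 0.12, or 1.55-fold. Hsp70Ab-like and Hsc70-4 are related in sequence, and it is not stated how reads that match several genes were counted, so the split of reads between them is uncertain.

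Hsc70Cb (LOC408706, chromosome 2, 6762713 to 6771073, minus strand) encodes an Hsp110-type exchange factor of Hsp70. It ranged from 431 through a median of 555 to 733 CPM in antag-missense brains and from 481 through 666 to 1344 CPM in antag-305 brains, a log2 difference of 0.44 ± 0.08. It overlaps LOC725742 on the opposite strand, and the strand setting of the counting is not given in the sources used here. Reads of the overlapping genes may therefore not be separable.

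The J proteins differed from each other in size of change. dnaJ homolog 1 (LOC411071, chromosome 5, 5502691 to 5506193, minus strand) ranged from 146 through a median of 260 to 489 CPM in antag-missense brains. In antag-305 brains the range was 163 through 426 to 935 CPM, a log2 difference of 0.70 ± 0.11, or 1.63-fold. This gene overlaps LOC725361 on the opposite strand, with the same limit. dnaJ A1 (LOC724368, chromosome 4, 9927392 to 9932492, minus strand), a type A J protein gene, ranged from 627 through 752 to 876 CPM in controls and from 688 through 852 to 1018 CPM with antag-305. Its log2 difference was small, 0.18 ± 0.03, with 31 of 35 antag-305 brains above the control median.

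In the Hsp90 system, Hsp90 (chromosome 7, 9550759 to 9553976, plus strand) ranged from 1291 through a median of 2450 to 3742 CPM in antag-missense brains and from 1050 through 4243 to 8421 CPM in antag-305 brains. The log2 difference was 0.76 ± 0.13, or 1.69-fold. The antag-305 brains were spread to both sides, with 20 above the highest control and 2 below the lowest. Hsp83 (LOC411700, chromosome 1, 20112796 to 20115650, minus strand) carries the name of the Drosophila cytosolic Hsp90. It ranged from 69.4 through 237 to 571 CPM in controls and from 61.8 through 368 to 1366 CPM with antag-305, a log2 difference of 0.76 ± 0.17. These paralogs are related in sequence too, with the same uncertainty in how reads were split. Stip1 (LOC102656934, chromosome 4, 11579218 to 11582421, plus strand), the adaptor that links Hsp70 to Hsp90, ranged from 162 through 213 to 289 CPM in controls and from 183 through 284 to 507 CPM with antag-305. Its log2 difference was 0.48 ± 0.08, with 16 of 35 antag-305 brains above all controls.

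Among chaperonins, Hsp60A (LOC409384, chromosome 16, 1230961 to 1234962, plus strand) ranged from 145 through a median of 209 to 297 CPM in antag-missense brains and from 183 through 269 to 493 CPM in antag-305 brains. The log2 difference was 0.50 ± 0.09. TCP1 delta (LOC551275, chromosome 14, 5408519 to 5411429, plus strand) encodes a subunit of the cytosolic chaperonin that folds actin and tubulin. It lay between 93.4 and 119 CPM in controls, with a median of 109, and between 98.7 and 134 CPM with antag-305, with a median of 119. It had the narrowest groups of the 10 and the smallest log2 difference, 0.14 ± 0.03.

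All 10 log2 differences in the brain were positive, which the choice of the genes fixed. They had a median of 0.57, against -0.0044 over all 9118 genes tested, and 5.47% of all genes were called higher in this contrast at a false discovery rate (FDR) under 0.05. The 10 genes together held a median of 1.33% of bee counts in antag-305 brains. The mitochondrial share of counts had a median of 1.33% (highest 1.91%) in antag-305 brains and 1.52% (highest 2.62%) in antag-missense brains. Its part in these differences was not tested.

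**Figure D1:**
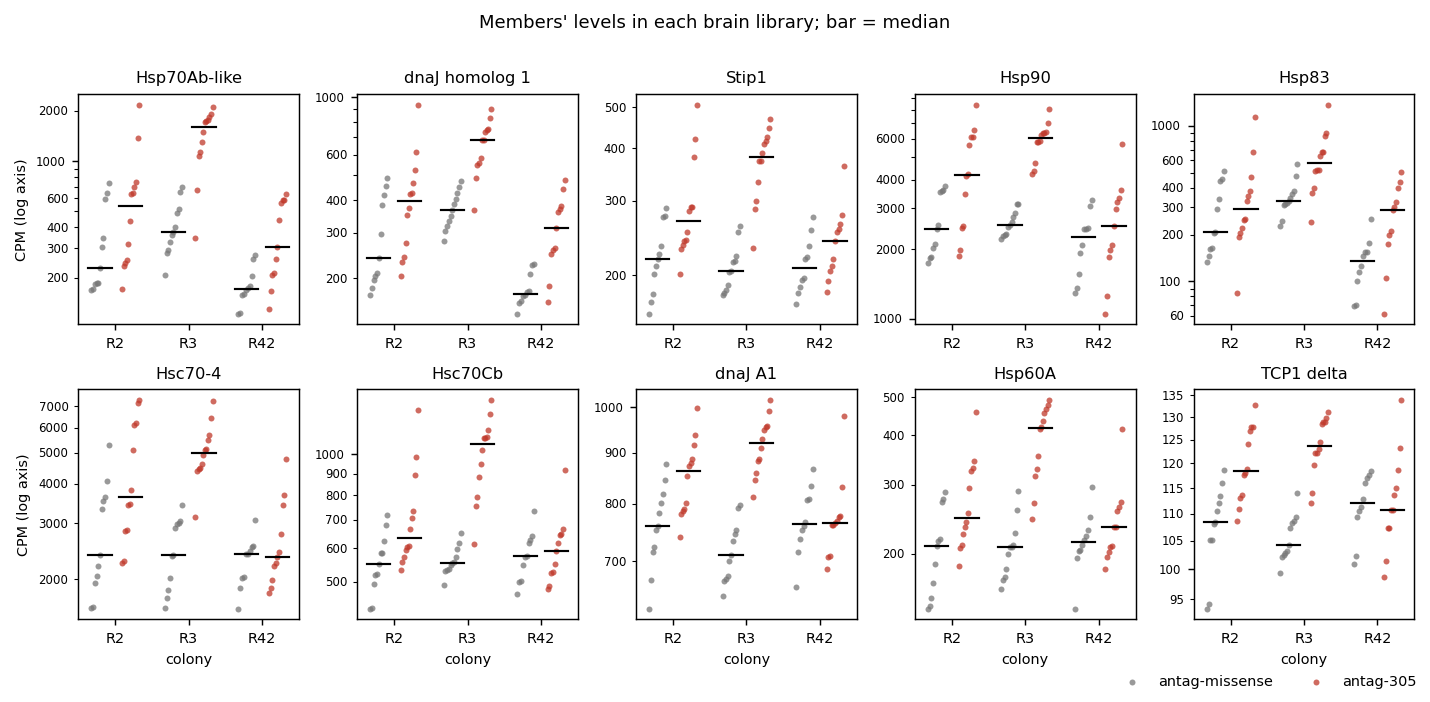
Level of each of the 10 genes in every kept brain library (vertical axis, CPM, log scale), by colony (horizontal axis) and treatment (grey, antag-missense; red, antag-305). Points within a group are ordered by level and bars are medians. The antag-305 brains of R3 stand highest for most genes, such as Hsp70Ab-like with a median of 1602 CPM, and those of R42 lie lower. In R42, 9 of 11 antag-305 brains lie above all controls of their colony for dnaJ homolog 1 and 6 of 11 for Hsp70Ab-like and Hsp83, but 1 to 3 of 11 for the other 7 genes.

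The size of the brain difference was uneven across colonies, again as a description. Its median over the 10 genes was 0.85 on the log2 scale in R3, 0.44 in R2 and 0.21 in R42. In R3, Hsp70Ab-like had a median of 376 CPM in 11 antag-missense brains and 1602 CPM in 12 antag-305 brains, a log2 difference of 1.77 ± 0.33. Hsp90 in R3 showed no overlap, from 2209 to 3151 CPM in controls and from 4236 to 8050 CPM with antag-305. dnaJ A1 in R3 was also fully separated, at 646 to 798 CPM against 813 to 1018 CPM.

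In R2 most antag-305 brains lay above the control median of their colony, while 2 to 7 of 12, depending on the gene, lay above all of its controls. TCP1 delta exceeded the control median of its colony in 12 of 12 antag-305 brains and Hsp83 in 9 of 12. The log2 difference in R2 was 0.96 ± 0.32 for Hsp70Ab-like, 0.76 ± 0.21 for Hsp90 and 0.61 ± 0.19 for Hsc70-4.

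In R42, Hsp70Ab-like (1.04 ± 0.34), Hsp83 (1.00 ± 0.31) and dnaJ homolog 1 (0.78 ± 0.20) had log2 differences above their own values in R2. The other 7 genes had log2 differences in R42 from 0.0077 (dnaJ A1) to 0.29 (Hsp90), each below its value in R2. For Hsp90 in R42, 3 of 11 antag-305 brains lay above all 10 controls and 2 lay below all of them.

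**Figure D2:**
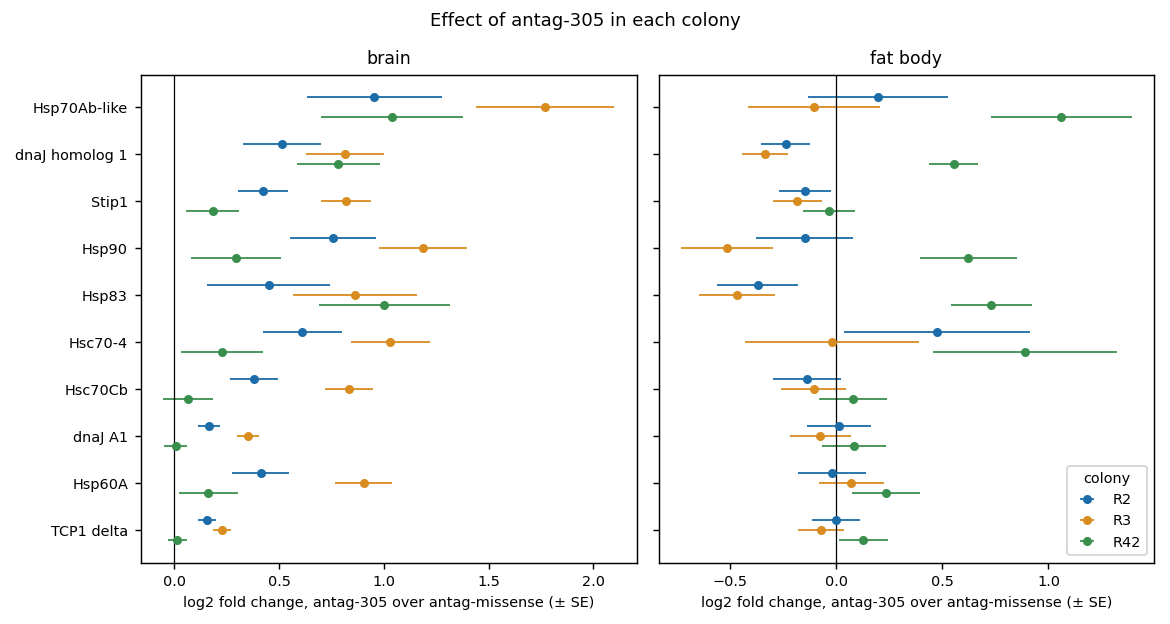
Log2 difference, antag-305 minus antag-missense, of each gene in each colony (points, with SE as bars), in brain and fat body. In the brain all 30 values lie above 0. In the fat body dnaJ homolog 1, Hsp83 and Hsp90 lie below 0 in R2 and R3 and above 0 in R42.

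The fat body contrast was not used to choose the genes, though the bees are the same. No pooled fat body difference between the treatments passed the test for any of the 10 genes: edgeR's quasi-likelihood test called 0 of 10 at an FDR under 0.05, 0 of 10 had an unadjusted p under 0.05, and DESeq2 called 0. Over all genes 0.0678% were called, 6 of 8844, and 797 had an unadjusted p under 0.05. The log2 differences had a median of -0.0087, against 0.010 over all genes, and 5 of the 10 were positive.

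Hsc70-4 and Hsp70Ab-like had the largest fat body differences and the widest intervals. Hsc70-4 ranged from 297 through a median of 2719 to 5856 CPM in antag-missense fat bodies and from 279 through 3280 to 7241 CPM in antag-305 fat bodies. Its log2 difference of 0.43 had a 95% interval from -0.06 to 0.92 (FDR = 0.572). Hsp70Ab-like ranged from 23.7 through 107 to 271 CPM in controls and from 36.5 through 132 to 317 CPM with antag-305. Its log2 difference was 0.36, with an interval from -0.02 to 0.75 (FDR = 0.557). Differences of that size were not detectable between these groups.

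Narrower intervals were obtained for the rest. dnaJ A1 differed by 0.0039 on the log2 scale (interval -0.16 to 0.17), TCP1 delta by 0.01 (-0.11 to 0.14), dnaJ homolog 1 by -0.02 (-0.18 to 0.14) and Hsp60A by 0.09 (-0.08 to 0.27). Stip1 was at 229, 339 and 534 CPM (lowest, median and highest) in controls and at 188, 313 and 461 CPM with antag-305, a log2 difference of -0.12 (-0.26 to 0.01, FDR = 0.557). Hsc70Cb (-0.06), Hsp83 (-0.06) and Hsp90 (-0.03) had FDRs of 0.841, 0.887 and 0.942. The difference between brain and fat body in response was not tested, since the brain values chose the genes.

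**Figure D3:**
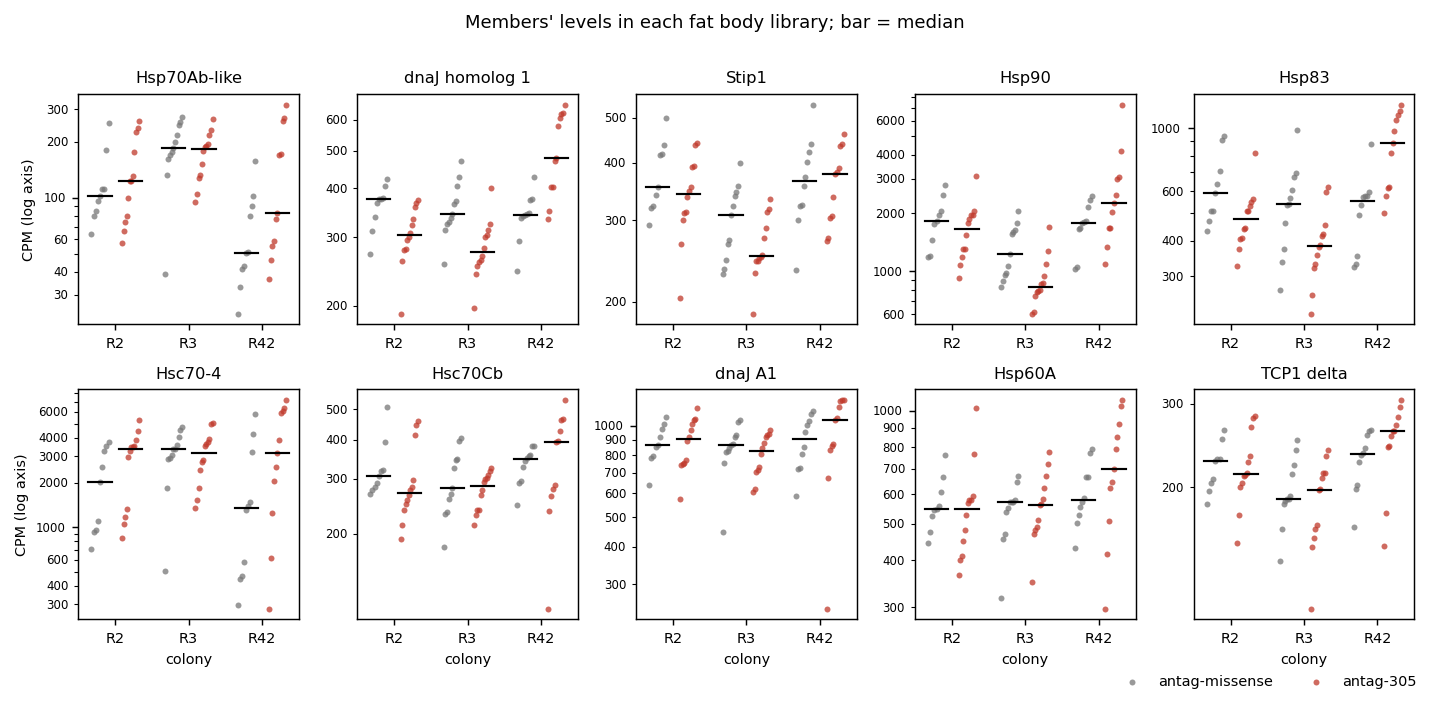
Level of each of the 10 genes in every kept fat body library (vertical axis, CPM, log scale), by colony and treatment (grey, antag-missense; red, antag-305). Points within a group are ordered by level and bars are medians. In R42 the antag-305 median of Hsp83 (888 CPM) lies above the control median (553 CPM), and in R3 it lies below (383 against 538 CPM).

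For 3 genes the fat body difference varied between colonies around a pooled value near 0. The colony by treatment interaction was called for dnaJ homolog 1 (FDR = 8.54e-04), Hsp83 (FDR = 0.0101) and Hsp90 (FDR = 0.0291) by edgeR's quasi-likelihood F test, while 10.5% of all genes were called. dnaJ homolog 1 had log2 differences of -0.24 ± 0.12 in R2, -0.34 ± 0.11 in R3 and 0.55 ± 0.12 in R42. In R42 it ranged from 246 through a median of 343 to 429 CPM in controls and from 334 through 479 to 657 CPM with antag-305. Of the antag-305 fat bodies, 0 of 12 in R2, 1 of 12 in R3 and 10 of 11 in R42 exceeded their own colony's control median.

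Hsp83 had log2 differences of -0.37 ± 0.19 in R2, -0.47 ± 0.18 in R3 and 0.73 ± 0.19 in R42. In R42 it ranged from 324 through 553 to 881 CPM in controls and from 500 through 888 to 1213 CPM with antag-305, and in R3 from 268 through 538 to 985 CPM against 220 through 383 to 621 CPM. The antag-305 fat bodies above their own control median numbered 1 of 12 in R2, 2 of 12 in R3 and 10 of 11 in R42. Hsp90 followed the same directions, with log2 differences of -0.15 ± 0.23, -0.52 ± 0.22 and 0.62 ± 0.23. Its highest fat body, R42 antag-305 bee 20 at 7253 CPM, decided the call: without this library, a choice made after seeing the data, the interaction had FDR = 0.0882. It was also lost without colony R3 (FDR = 0.199) and with only genes of at least 10 counts in every library (FDR = 0.0743). The interaction of all 3 genes rested on colony R42, without which, also an added choice, 0 of the 10 genes and 0 of all genes were called by edgeR, with 0 and 257 of them at an unadjusted p under 0.05. In the bees of R2 and R3 alone, dnaJ homolog 1 was called lower with antag-305 in the treatment contrast, by -0.28 on the log2 scale (FDR = 0.0266), with 86 genes called in all.

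Hsp70Ab-like had the largest fat body difference in any colony, 1.06 ± 0.33 in R42, from a control median of 50.6 CPM to 82.8 CPM, but its interaction was not called (FDR = 0.173). The other 6 genes had interaction FDRs between 0.561 and 0.85. A covariate for the summed muscle markers left the interaction count at 3 of the 10, and so did leaving out the 2 fat bodies of the highest mitochondrial share. In R42 fat bodies the muscle marker sum had a median of 2128 CPM in controls and 2486 CPM with antag-305.

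Brain and fat body of the same 30 antag-missense bees were compared with the bee as a block. These brains had also served in the contrast that chose the genes, and levels in CPM were scaled within each tissue, while the test scaled both together. Of the 10 genes, 9 differed between tissues at an FDR under 0.05, 3 higher in the brain and 6 lower, in a comparison that called 90.2% of all genes, 44.5% higher and 45.7% lower. A share of 9 in 10 is thus close to that of all genes. The median log2 difference, brain minus fat body, was -0.30, against -0.03 over all genes.

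Within the Hsp70 system the brain had more of the inducible-type Hsp70 and of its exchange factor. Hsp70Ab-like was higher in the brain by 1.37 ± 0.17 on the log2 scale (2.59-fold, FDR = 2.71e-09) and Hsc70Cb by 0.84 ± 0.06 (1.79-fold, FDR = 5.73e-14). Hsc70-4 differed by 0.37 with an interval from -0.12 to 0.85 and was not called (FDR = 0.16), though without colony R3 it was (0.79, FDR = 0.0203). The J proteins were lower in the brain, dnaJ homolog 1 by -0.40 ± 0.10 (FDR = 6.72e-04) and dnaJ A1 by -0.20 ± 0.07 (FDR = 0.00579). Without colony R42 the difference of dnaJ homolog 1 was -0.15 (FDR = 0.2). That of dnaJ A1 was not called without colony R2 (FDR = 0.151) or R3 (FDR = 0.0552), nor with no filter on low counts (FDR = 0.128).

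The Hsp90 paralogs differed in opposite directions. Hsp90 was higher in the brain by 0.64 ± 0.11 (1.55-fold, FDR = 5.7e-06) and Hsp83 lower by -1.27 ± 0.18 (0.415-fold, FDR = 1.01e-07). In antag-missense bees Hsp83 had a median of 237 CPM in brains and 552 CPM in fat bodies, with overlapping ranges of 69.4 to 571 and 268 to 985 CPM. Stip1 was lower in the brain by -0.68 ± 0.07 (FDR = 4.73e-11). The chaperonins differed most clearly: Hsp60A, the mitochondrial form, by -1.47 ± 0.08 (0.362-fold, FDR = 1.03e-18) and TCP1 delta by -0.97 ± 0.05 (0.510-fold, FDR = 1.76e-18). For both, no brain reached the lowest fat body: 145 to 297 against 317 to 789 CPM for Hsp60A and 93.4 to 119 against 140 to 264 CPM for TCP1 delta. Such separation is not particular to chaperonins by these values. Ordered by p-value in the tissue comparison, Hsp60A stood at rank 2051 and TCP1 delta at rank 2120 of 8282 genes. The share of all genes with no overlap between tissues was not counted. The mitochondrial share of counts was 0.929% to 2.62% in antag-missense brains and 4.55% to 12.4% in antag-missense fat bodies, and its part in the Hsp60A difference was not tested.

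**Figure D4:**
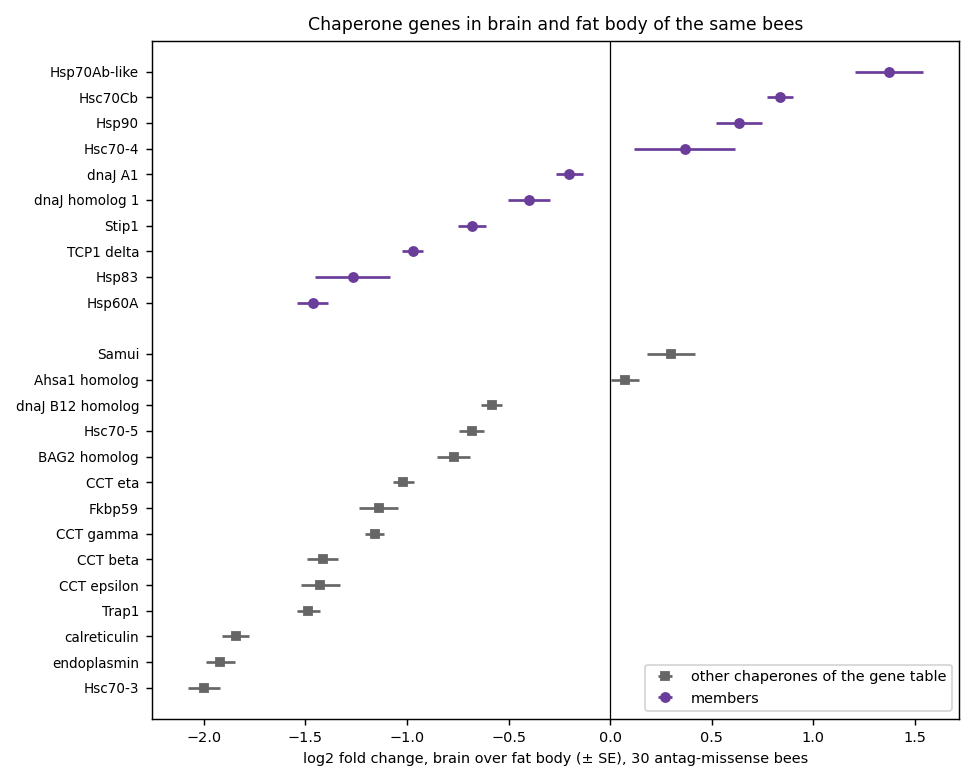
Log2 difference, brain minus fat body, in 30 antag-missense bees (with SE as bars), of each of the 10 genes (circles) and of 14 other chaperones (grey squares). Among the 10, Hsp70Ab-like, Hsc70Cb and Hsp90 lie above 0 and the chaperonins and Hsp83 furthest below, with Hsp60A at -1.47.

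Colonies differed in the control level of 3 of the 10 genes in the brain. The F test over colonies in antag-missense brains called dnaJ homolog 1 (FDR = 1.35e-04), Hsp83 (FDR = 5.68e-04) and Hsp70Ab-like (FDR = 0.00611), where 11.4% of all genes were called. R42 was the low colony in each. dnaJ homolog 1 had medians of 240, 368 and 175 CPM in R2, R3 and R42, and the ranges of R3 (279 to 473 CPM) and R42 (146 to 228 CPM) did not overlap. Its R42 minus R3 difference was -1.03 ± 0.16 on the log2 scale. Hsp83 had medians of 207, 327 and 136 CPM (R42 minus R3, -1.37 ± 0.25) and Hsp70Ab-like of 229, 376 and 171 CPM (-1.21 ± 0.27). These were the genes whose antag-305 difference in R42 exceeded that in R2, and both values use the same R42 controls. The remaining 7 genes had FDRs from 0.431 to 0.895. Because a colony is a trial, the trial and the colony cannot be told apart.

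In antag-missense fat bodies 1 of the 10 genes was called over colonies, Hsp70Ab-like (FDR = 0.00613), against 15.9% of all genes. Its medians were 102, 184 and 50.6 CPM in R2, R3 and R42, and R42 minus R3 was -1.48 ± 0.31 on the log2 scale. R42 was thus the low colony for this gene in both tissues. Stip1 (FDR = 0.0899), Hsp90 (FDR = 0.0987) and TCP1 delta (FDR = 0.124) had unadjusted p-values under 0.05. With Hsp70Ab-like this made 4 of the 10 genes, against 2820 of all 8844 genes. dnaJ homolog 1 had nearly equal fat body medians of 375, 345 and 343 CPM (FDR = 0.752), and Hsp83 had 592, 538 and 553 CPM (FDR = 0.544). With the fat bodies of high viral share included, 3 genes were called, with Stip1 at FDR = 0.0368 and Hsp90 at FDR = 0.032. A muscle marker covariate, chosen after seeing the data, also gave 3, with Stip1 at FDR = 0.0426 and Hsc70-4 at FDR = 0.00471. With this covariate the number called rose over all genes too, as given in the last section, so the rise was not particular to these genes.

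The genes differed widely in how much bees of the same colony and treatment varied. In the brain the residual SD was 0.78 on the log2 scale for Hsp70Ab-like and 0.73 for Hsp83, at the 97.2 and 96.4 percentiles of all genes. It was 0.12 for dnaJ A1 and 0.09 for TCP1 delta, at the 5.46 and 1.06 percentiles. In the fat body the widest was Hsc70-4, with a residual SD of 1.10 at the 92.4 percentile, and dnaJ homolog 1 was narrow, at 0.26 and the 19.4 percentile. The lowest Hsc70-4 fat body, R42 antag-305 bee 14 at 279 CPM, also had the lowest dnaJ A1 (249 CPM) and Hsc70Cb (115 CPM) of its tissue and a mitochondrial share of 12.1%.

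Across bees of the same group, the 10 genes moved together in the brain and less so in the fat body. These correlations are of log2 CPM after the means of colony, treatment and their interaction were removed, and libraries share normalization, so no p-value is given. Over 67 brains the 45 pairs had a median Pearson r of 0.75, a range from 0.10 to 0.94, no negative value and 35 pairs above 0.5. All genes in the brain had a median pair r of -0.0009, with the middle 90% from -0.72 to 0.74. Over 65 fat bodies the 45 pairs had a median r of 0.39, a range from -0.45 to 0.84 and 8 negative pairs, where all genes had a median of -0.0095 and a middle 90% from -0.61 to 0.70. The difference between tissues was not tested. The same brains served in the contrast that chose the 10 genes together, and all genes were not chosen in this way. The part of that choice in the brain correlations was not tested.

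In the brain the closest pairs were Stip1 with Hsc70Cb and Hsp70Ab-like with dnaJ homolog 1, both at r = 0.94. Hsc70-4 was least tied to the others, at r = 0.10 with Hsp83 and 0.21 with Hsc70Cb, and closest to TCP1 delta at 0.75. In the fat body the pairing changed: Hsp70Ab-like went with Hsc70-4 (r = 0.77) and not with dnaJ homolog 1 (r = -0.17), and Hsc70Cb went with dnaJ A1 (r = 0.84). Hsp83 ran against Hsc70-4 there (r = -0.45) and with Hsp90 (r = 0.54).

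**Figure D5:**
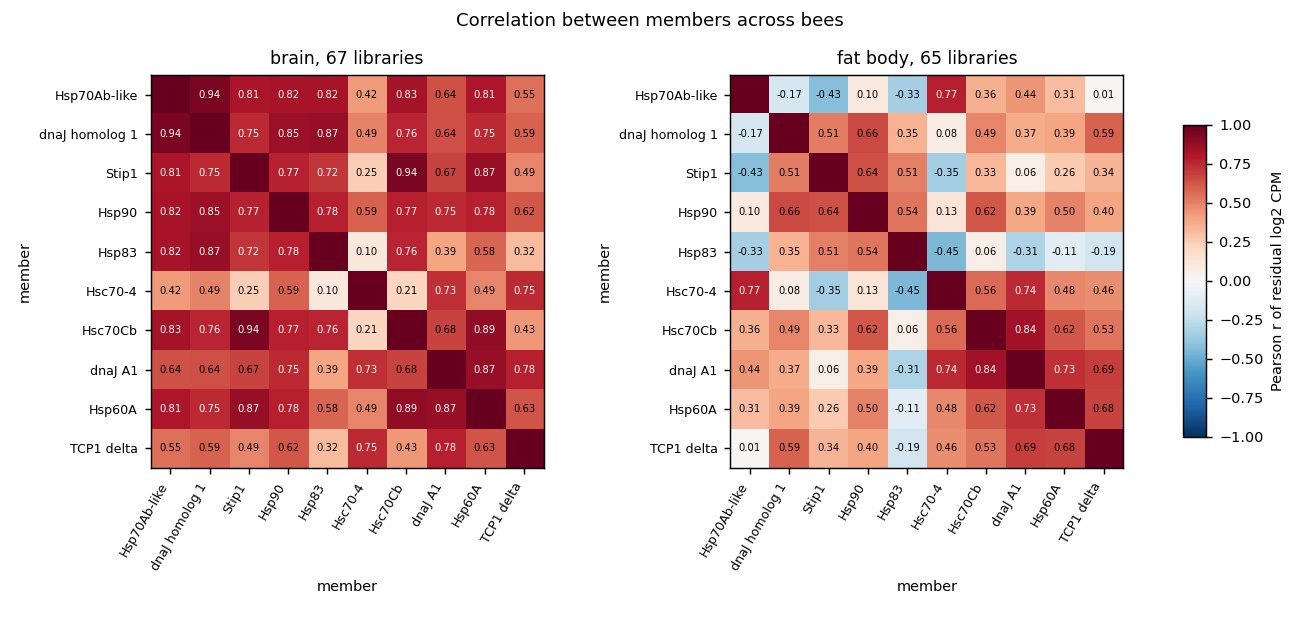
Pearson r between each pair of the 10 genes across bees, on log2 CPM after colony, treatment and their interaction were removed, in 67 brains (left) and 65 fat bodies (right). Red is positive and blue is negative. All brain pairs are positive, whereas in the fat body Hsp83 and Hsp70Ab-like each have negative values.

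Muscle, fat body and neuron markers and the mitochondrial share each moved with part of the list in the fat body. Over 65 fat bodies, the summed muscle markers correlated with Hsc70-4 (r = 0.81), dnaJ A1 (r = 0.71) and Hsp70Ab-like (r = 0.62) and negatively with Hsp83 (r = -0.52). The value for Hsp90 was 0.0036. The fat body marker sum had r from -0.48 (Hsp83) to 0.58 (Hsc70-4) with the 10 genes, and 0.51 with dnaJ A1. Neuron markers had r from -0.60 (TCP1 delta) to 0.27 (Hsp83). The mitochondrial share ran against dnaJ A1 (r = -0.65), Hsp70Ab-like (-0.60), Hsc70Cb (-0.59), Hsc70-4 (-0.57) and Hsp60A (-0.55). In 67 brains the mitochondrial share ran against dnaJ A1 (r = -0.58), Hsc70-4 (-0.57), TCP1 delta (-0.49) and Hsp60A (-0.44), and had r = 0.22 with Hsp83. Fat body markers in brains had r from -0.23 (Hsp83) to 0.48 (Hsc70-4) with the 10 genes. The log2 total count had r from -0.21 (Hsc70Cb) to 0.45 (Hsc70-4), and neuron markers from -0.45 (Hsp83) to 0.12 (dnaJ A1). Gland markers had r from -0.08 to 0.14. The part of these measures in the correlations was not tested.

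Over all 65 bees, none of the 10 genes had a detectable positive correlation between brain and fat body. Brain and fat body residuals of the same 65 bees were correlated for each gene, which gave 10 relations, with bees permuted 100000 times within colony and treatment (two-sided). Colony and treatment were removed from these residuals, but not their interaction. Each r therefore mixes differences between group means with differences between bees, and does not show the relation within groups alone. Hsp70Ab-like had the highest r, 0.17 (permutation p = 0.199), with rho = 0.13 (p = 0.36), and r = 0.11 without the 2 bees farthest from the median. Hsp83 had the lowest, r = -0.23 (permutation p = 0.0448) with rho = -0.25 (p = 0.0399), r = -0.19 without those 2 bees, and -0.32, -0.21 and -0.20 in R2, R3 and R42. It was not called over all genes (FDR = 0.69). The 10 genes had a median r of 0.0085 and 0 were called. All 8282 genes had a median r of 0.04, and 0.918% of them, 76, were called.

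Another 14 chaperone genes could be named from the descriptions in the study's gene table. That table lists brain genes that differed with antag-305, so this list is incomplete and its brain treatment values are also fixed by choice. In the fat body 0 of the 14 were called with antag-305 by edgeR, 1 had an unadjusted p under 0.05 and the median log2 difference was -0.04. That gene was CCT eta (-0.11, FDR = 0.531), a subunit of the chaperonin that TCP1 delta belongs to. By family, the smallest p-values belonged to the Ahsa1 homolog (-0.13, FDR = 0.557), an activator of Hsp90, to Hsc70-5 (-0.07, FDR = 0.763), the mitochondrial Hsp70, to the dnaJ B12 homolog (-0.07, FDR = 0.691) and to calreticulin (0.05, FDR = 0.845), a lectin of the endoplasmic reticulum. None of the 14 had a called interaction with colony by edgeR, where 10.5% of all genes were called. Of the 14, 0 had an unadjusted p under 0.05 in that test, against 2131 of all 8844 genes.

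Between tissues, 13 of the 14 were called, 12 lower in the brain and 1 higher, in the comparison that called 90.2% of all genes. Their share is thus near that of all genes. The median log2 difference, brain minus fat body, of the 14 was -1.15. The endoplasmic reticulum chaperones were furthest down, with Hsc70-3 at -1.998, endoplasmin at -1.92 and calreticulin at -1.84. CCT gamma was lower by -1.16 ± 0.05, beside TCP1 delta at -0.97. Fkbp59, a co-chaperone of Hsp90, was lower by -1.14 ± 0.10 and mitochondrial Trap1 by -1.49 ± 0.06. The gene higher in the brain was Samui, a BAG-domain co-chaperone known from the silkworm, at 0.30 ± 0.12 (FDR = 0.0207). Among control colonies 1 of the 14 was called in the brain, endoplasmin (FDR = 4.66e-04), and 2 in the fat body, CCT eta (FDR = 0.00489) and endoplasmin (FDR = 0.0346). These counts are close to the shares of all genes called, 11.4% in brains and 15.9% in fat bodies.

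The genes whose levels across bees were most like the mean residual of the 10 were found among all others. In 67 brains the first of them were LOC107966102 (chromosome 2, r = 0.91) and LOC412197 (chromosome 1, r = 0.90), followed by LOC409664 (0.86), LOC412067 (0.86), LOC412470 (0.84), LOC100576381 (0.84), LOC412287 (0.84) and LOC724367 (0.83). LOC412287 is Fkbp59, and Samui stood at rank 10 of 9108 with r = 0.81. The 14 other chaperones were spread widely, from rank 7 (Fkbp59) to rank 8769 (dnaJ B12 homolog, r = -0.27). In 65 fat bodies the values were lower: LOC552401 (0.76), LOC412505 (0.72), LOC409825 (0.72), LOC552077 (0.71), LOC412748 (0.70), LOC413736 (0.70), LOC552261 (0.70) and LOC550656 (0.70). LOC409825 is CCT epsilon, and the 14 ranged there from rank 3 to rank 3423 of 8834 (dnaJ B12 homolog, r = 0.12). No gene was among the first 8 in both tissues.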

How the data were processed

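RNA-seq libraries were made by the authors from the brain and fat body of single bees. Per the methods, STAR 2.7.6a aligned reads to the bee genome HAv3.1 and featureCounts of Subread 2.0.0 gave the deposited counts per gene. Per the file headers, each gene is 1 span from its start to its end, and the tables also hold rows named for 5 viruses. The treatment of multi-mapping reads and of strand is not given in the sources used here. Gene symbols came from the RefSeq annotation and matched 12331 of 12332 genes. The members and gene lists were chosen with earlier results of these data known.

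Libraries with at most 0.5% viral counts were kept. Genes above 1 CPM in at least 32 brains or 30 fat bodies were tested with edgeR 4.0.16 (R 4.3.3, limma 3.58.1; TMM scaling, quasi-likelihood F tests, Benjamini-Hochberg adjustment over all tested genes, FDR under 0.05) with colony as a covariate, or with bee as a block between tissues, since both tissues came from the same bee. Log2 CPM used a prior count of 2. SEs were derived from the log2 difference and its F value, and 95% intervals from the SE. Correlations between tissues used residuals after colony and treatment but not their interaction, with an FDR over all genes from Student's distribution. All 10 members were named, and of other chaperones the 1 per family with the smallest p, with the 8 genes most like the members in each tissue. A few other chaperones were named after their values were seen. DESeq2 1.42.0, other filters, scalings and left-out colonies were alternatives. Scripts were tested on simulated counts. Across genes, the deviations of a bee's brain and fat body from their group means had a median r of 0.049, against -0.0017 for different bees.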

Additional observations from a re-analysis of the deposited data

Results flagged for a closer look

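The treatment difference in the fat body varied between colonies for dnaJ homolog 1 (interaction FDR = 0.000854), Hsp83 (FDR = 0.0101) and Hsp90 (FDR = 0.0291) by edgeR's quasi-likelihood F test. These values stand with those of each colony in the results above.

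Groups of at most 10 libraries were looked at for a single far library. They were antag-missense R42 brains, R2 fat bodies and R42 fat bodies, for each of the 10 genes. Larger groups, all antag-305 groups among them, were not looked at, and the groups of different genes share bees. Of these 30 groups, 1 held a single library far from the rest, where chance gives about 1 in 20 independent groups. This was Hsp83 in R42 antag-missense fat bodies, with bee 18 at 881.217 CPM against 595 CPM for the next and a median of 553 CPM. That library stands among the controls of the R42 comparison, in which 10 of 11 antag-305 fat bodies lay above the control median.

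The fat bodies left out for their viral share held members above the highest kept antag-missense fat body, on a scale set over all fat bodies. R2 bee 27, with 0.873% viral counts, had dnaJ homolog 1 at 490.975 CPM (highest kept control 451), Hsp90 at 4151.77 CPM (2966) and TCP1 delta at 271.862 CPM (266). R2 bee 23, with 12.7%, had Hsp70Ab-like at 321.538 CPM (261) and Hsp60A at 857.401 CPM (799), while its dnaJ homolog 1, at 250.612 CPM, lay below the lowest kept control (270.03 CPM). R3 bee 21, with 47.9%, had Hsp60A at 907.749 CPM, and R42 bee 15, with 11.7%, had TCP1 delta at 274.33 CPM. In the 2 left-out brains, of R3 bee 21 (47.7%) and R42 bee 15 (23.7%), 0 members lay outside the range of the kept controls.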

How the results depend on the processing

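Of the counts of members called and the brain median, 66 alternatives stayed within a set margin and 4 did not. For counts the margin was 1.5 times. For the brain median it was the members' median residual SD between bees. That is a wide margin, within which even 0.37 without R3 lay, so it could hardly show a change in the brain median. Without colony R42 the fat body treatment contrast called 1 member in place of 0 and the interaction, an added choice, called 0 in place of 3. The colony comparison in control fat bodies called 3 in place of 1, both with all libraries and with the added muscle marker covariate. The cause was not tested. Over all genes, that comparison called 1407, but 776 with no filter and 2522 with the covariate, the interaction called 928 but 542 with at least 10 counts in every library, and the fat body contrast called 6 but 14 by DESeq2, 86 without R42, 1 or 0 on the bees of the block and 0 without R2 or R3. The brain median log2 difference of 0.57 lay between 0.37 (without R3) and 0.66 (without R42).

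The labels number bees within each colony, and 54 numbers occur in both treatments of a tissue. Across genes, the deviations of same-numbered bees had a median r of -0.022, from -0.69 to 0.60, with 19 above 0.1. The 2 tissues of the same bee, a known pairing, had a median r of only 0.049, with 23 of 65 above 0.1. The measure therefore cannot decide whether same-numbered bees were paired. A replicate block on these numbers gave a brain median of 0.61 on 56 libraries (0.62 with no replicate block on the same bees) and 0 members called in the fat body on 52 libraries.

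Fat body differences near 0 took the other sign under some settings, none of them called. dnaJ homolog 1 was 0.093 without R2, 0.13 without R3, 0.025 with no colony covariate, 0.032 with the replicate block and 0.041 without it on the same bees. Hsp83 was 0.11 without R2, 0.15 without R3, 0.028 with no colony covariate, 0.037 with the block, 0.032 without it and 0.050 with the muscle covariate. Hsp90 was 0.029 without R2, 0.21 without R3, 0.099 with no colony covariate and 0.0043 on the bees of the block. TCP1 delta was -0.0091 with all libraries, -0.0019 with the block, -0.029 without R42 and -0.035 with the muscle covariate. dnaJ A1 was -0.0024 by DESeq2 and with its size factors, -0.0102 with at least 10 counts, -0.0100 without the highest Hsp90 library, -0.0041 with all libraries, -0.057 with the block, -0.034 without it, -0.0025 without R2, -0.024 without R42, -0.036 with gene span offsets and -0.096 with the muscle covariate. In antag-missense bees alone the correlations between tissues were -0.099 for Hsc70-4, -0.096 for dnaJ A1, 0.0054 for Hsp90, 0.073 for TCP1 delta and 0.067 for dnaJ homolog 1, and dnaJ A1 was at -0.011 without the 2 bees of the highest fat body mitochondrial share. The lowest count of a member in any kept library was 222 (Hsp70Ab-like, fat body).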
